A study of Mus musculus with 19 samples.

Results

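The mRNAs of 10 genes of the cytosolic Hsp70 chaperone system were followed in the mouse striatum, out of 54232 genes in the count table. They were chosen by name: the stress-inducible Hsp70 genes Hspa1a and Hspa1b, the constitutive Hspa8 (Hsc70) and Hspa2, the Hsp110-type genes Hspa4 and Hsph1, the distant relative Hspa12a, and the co-chaperones Hspbp1, Stub1 (which encodes CHIP) and Bag3. All 10 were found, and all 10 were among the 18521 genes that passed the filter on low counts. The striatum of 6-month-old C57/BL/6 mice was sequenced in 4 mice each of KI-96, of KI-571 and of KI-FL and in 7 WT mice. KI-FL (HD140Q) mice carry a long CAG repeat in the mouse Htt gene and express the whole mutant HTT protein. The KI-571 and KI-96 lines were made from HD140Q mice by a further CRISPR/Cas9 cut in the mutant allele, which leaves an N-terminal fragment that keeps the long polyQ repeat, and the KI-96 fragment is the shorter. Mutant HTT is made from the endogenous promoter in every cell that uses it, WT mice carry no such allele, and the methods describe KI mice as heterozygous. KI-571 mice descended from 1 founder and KI-96 mice from 3 founders, so that a founder effect and the truncation cannot be told apart in KI-571 mice. The labels give neither sex nor sacrifice batch.

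Hsp70 proteins bind exposed hydrophobic stretches of client proteins in a cycle of ATP hydrolysis and nucleotide exchange. J-domain proteins start the cycle, and exchange factors, among them the Hsp110-type proteins, BAG-domain proteins and HspBP1, end it. CHIP is a ubiquitin ligase that marks Hsp70-bound clients for the proteasome, HspBP1 inhibits Hsp70 and CHIP, and BAG3 directs clients to autophagy. In neurons, where polyQ proteins misfold, HspBP1 is of interest as an inhibitor of this system. Hspa8 is made at all times, whereas Hspa1a and Hspa1b are switched on by the heat shock factor HSF1.

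Hspa1a (ENSMUSG00000091971.3) and Hspa1b (ENSMUSG00000090877.3) lie next to each other on the minus strand of chromosome 17 of GRCm38, at chr17:34969190-34972156 and chr17:34956436-34959238, with 9951 bases between them, and each has 1 exon. Their longest open reading frames of 1926 and 1929 bases were identical at 1890 of the bases compared one by one from the start codon (98.13%). The 250 bases upstream of their RefSeq starts are shown because these inducible genes varied most among the members, next to the windows of Hsph1, whose window also holds a heat shock motif, and Hspbp1, whose window holds none. The windows are from GRCm38.p6 on the minus strand, at chr17:34972157-34972406 for Hspa1a, chr17:34959239-34959488 for Hspa1b, chr5:149636316-149636565 for Hsph1 and chr7:4684982-4685231 for Hspbp1. Capitals mark a pair of inverted heat shock units, GAANNTTC or TTCNNGAA.
Hspa1a: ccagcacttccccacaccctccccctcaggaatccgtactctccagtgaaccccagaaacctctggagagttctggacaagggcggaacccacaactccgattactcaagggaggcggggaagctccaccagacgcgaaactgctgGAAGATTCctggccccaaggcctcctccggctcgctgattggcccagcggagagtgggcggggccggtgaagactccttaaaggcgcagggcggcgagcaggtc
Hspa1b: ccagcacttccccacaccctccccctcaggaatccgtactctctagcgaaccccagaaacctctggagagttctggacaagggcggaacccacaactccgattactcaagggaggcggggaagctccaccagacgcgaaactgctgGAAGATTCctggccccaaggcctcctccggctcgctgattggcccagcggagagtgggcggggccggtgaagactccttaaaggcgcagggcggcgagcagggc
Hsph1: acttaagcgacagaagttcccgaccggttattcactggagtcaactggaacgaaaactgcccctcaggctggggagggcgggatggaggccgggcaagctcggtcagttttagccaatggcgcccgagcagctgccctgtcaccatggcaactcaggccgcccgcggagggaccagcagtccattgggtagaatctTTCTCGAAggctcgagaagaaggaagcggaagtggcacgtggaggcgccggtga
Hspbp1: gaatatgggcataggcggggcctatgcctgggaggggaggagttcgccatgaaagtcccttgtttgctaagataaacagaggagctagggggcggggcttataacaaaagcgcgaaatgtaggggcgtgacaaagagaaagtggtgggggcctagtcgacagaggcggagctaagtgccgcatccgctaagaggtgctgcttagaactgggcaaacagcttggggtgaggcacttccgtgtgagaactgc

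The windows of Hspa1a and Hspa1b were identical at 247 of 250 bases (98.8%). Counted from 1 at the 5′ end of the window, with the Hspa1a base given before the position, the differences were C44T, T47C and T249G. Both held a GAANNTTC match beginning 104 bases upstream of the start and a CCAAT box (the NF-Y motif, on either strand) beginning 67 bases upstream. Both strands were searched, GAANNTTC and TTCNNGAA each read the same on either strand, and no match overlapped another. GAANNTTC was present in 6.69% and TTCNNGAA in 7.17% of 32851 RefSeq windows of the same length, at least 1 of these pairs in 12.8%, and CCAAT in 33.8%. Among the 9 members with a RefSeq window, Hspa1a, Hspa1b and Stub1 had GAANNTTC, with the Stub1 match beginning 123 bases upstream, and Hsph1 had TTCNNGAA. In the GENCODE M21 gene models, however, the Stub1 window lies wholly inside the gene. The Hspa2, Hsph1 and Hspbp1 windows lie partly inside theirs. Hsph1 and Hspa12a have 2 windows each, which hold the same pairs or none, and the window with the lower coordinates is the one shown. The windows of Hspa2, Hspa4, Hspa12a, Hspbp1 and Bag3 held neither pair, which says only that these letters are not in them.

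**Figure D1:**
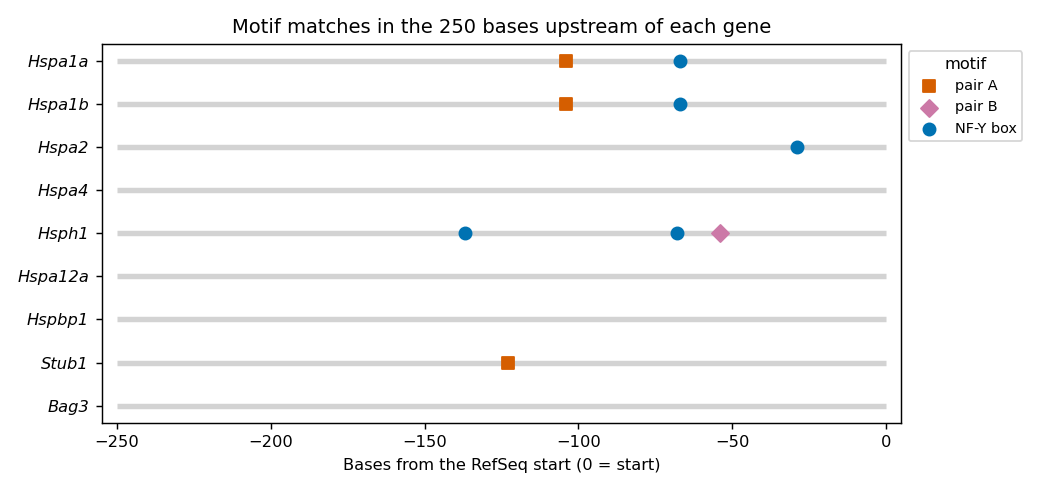
Motif matches in the 250 bases upstream of the RefSeq start of 9 members. The horizontal axis gives bases from the start, and symbols mark the first base of each match: pair A is GAANNTTC, pair B is TTCNNGAA and NF-Y box is CCAAT. Hspa1a and Hspa1b share their arrangement, with pair A at 104 and the NF-Y box at 67 bases upstream.

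Near-identical sequence limits what the counts can tell apart. Of the 100-base stretches of the Hspa1a transcript, the shortest read length kept by the authors, 47.1% were also present in Hspa1b, and 56.5% were present in at least 1 other annotated gene. Matches on either strand were counted, and Gm20481, which overlaps Hspa1a on the opposite strand, held 13%. For Hspa1b the share in other genes was 49.9%. For Hspa8 it was 32.1%, with pseudogenes such as Gm15459 holding 28.9%. Stub1 shared 42.3% of its exon bases with exons of Jmjd8 on the opposite strand. Hspa1a shared 19% with the antisense gene Gm20481. The strand setting of the counting is not given in the sources used here, so that Stub1 and Jmjd8 reads cannot be told apart with certainty. No 100-base stretch of the longest transcript of Hspa2, Hspa4, Hsph1, Hspa12a, Hspbp1 or Bag3 occurred in another gene, and 1.81% of the exon bases of Hspa12a overlapped exons of Eno4 on the opposite strand.

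The libraries held 12669809 to 26388542 reads on genes. Markers of striatal projection neurons (9 genes, among them Ppp1r1b, Drd1 and Drd2) were present in every mouse, with a summed level of 4940 to 8730 CPM (the read count scaled to library size with TMM factors). KI-FL replicate 4 had 3186 of the tested genes at 0, against 10 to 222 in the other mice. In KI-96 replicate 3, 24.2% of reads fell on no gene. WT replicate 3 had the highest summed level of cortical neuron markers, at 1000 CPM against 9.38 to 404 CPM in the other mice. The summed level of 4 choroid plexus markers was 5070 CPM in KI-571 replicate 2, 5300 in KI-571 replicate 4 and 3010 in KI-FL replicate 1, against 35.6 to 405 CPM in the other mice, and its part in the values of the members was not tested. High Xist was seen in 6 mice: KI-FL replicate 2, WT replicate 1 and the whole KI-96 group. The Y-linked genes Eif2s3y, Ddx3y and Uty were at 0 CPM in all KI-96 mice. In KI-571 mice they had at least 32.9, 43.8 and 14.3 CPM. Sex and genotype thus cannot be told apart between KI-96 and KI-571 mice. Between KI-96 and WT mice they can hardly be told apart, since only WT replicate 1 had high Xist in WT. The target gene Htt was present in every mouse, with 168 to 195 CPM in WT, 143 to 240 in KI-96, 104 to 141 in KI-571 and 137 to 179 in KI-FL mice, and its count does not show the repeat.

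Levels of different genes were set side by side per kilobase of exon. Stub1 and Hspa12a had another identifier version in the counts than in the gene models, so their lengths may differ from those counted. Reads not uniquely placed were left out, which may lower Hspa1a, Hspa1b and Hspa8, parts of which recur in other genes. On this scale Hspa8 was the most abundant member in WT striatum, at 261 ± 47.2 CPM per kb (SD, n = 7). Hsph1 followed at 46.3 ± 9.35 and Hspa4 at 40.2 ± 4.22, and the ranges of these Hsp110-type genes overlapped. Hspbp1 stood next at 29.0 ± 3.09, below every value of Hspa4. Stub1 (16.8 ± 1.77), Hspa12a (16.1 ± 1.09) and Hspa2 (13.2 ± 2.27) came next, and the ranges of neighbours in this order overlapped. Hspa1b (5.82 ± 6.02), Bag3 (4.87 ± 1.16) and Hspa1a (2.45 ± 2.52) were the lowest, and their ranges overlapped as well, with Hspa1b reaching into the range of Hspa2. The message for the inhibitor Hspbp1 exceeded that for CHIP, its target, in all 19 mice when lengths were the union of exons, with a ratio of 1.62 to 1.90 in WT and 1.08 to 2.32 in KI mice. With the lengths of the longest transcripts it did so in 18 of 19 mice, and the ratio was 0.906 in KI-96 replicate 3. However, 42.3% of the Stub1 exon bases overlap exons of Jmjd8, and reads there may have gone uncounted. That would raise the ratio, so whether Hspbp1 mRNA exceeds Stub1 mRNA remains uncertain. The counts do not measure the proteins. Relative to Hspa8 per length, Hspbp1 reached 8.13% to 15.6% in WT and 5.89% to 14.7% in KI mice. These ratios overlapped between WT and each KI genotype, and no test was run on them.

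**Figure D2:**
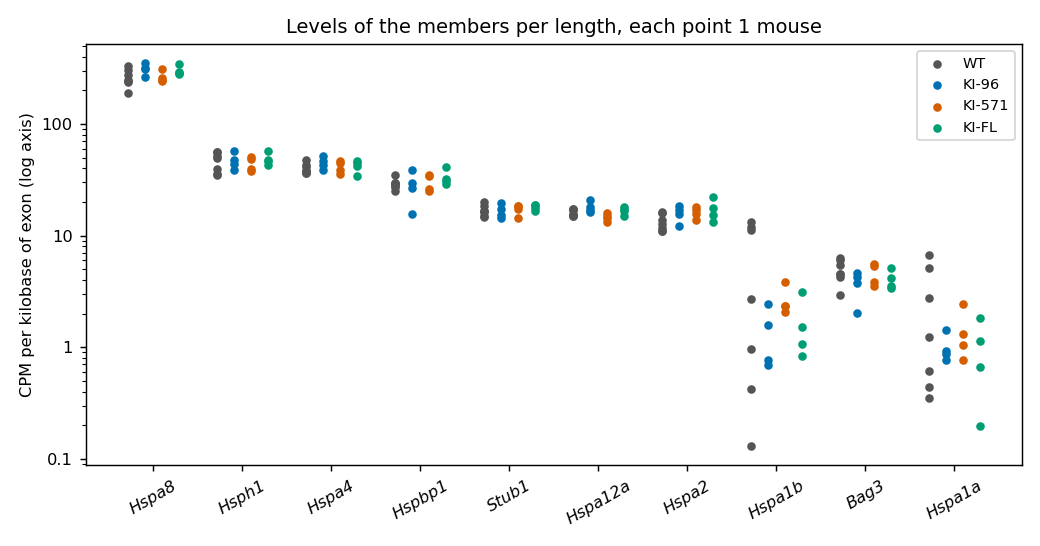
Level of each member in CPM per kilobase of exon (logarithmic vertical axis), each point 1 mouse, coloured by genotype, with genes ordered by their mean in WT. Hspa8 lies above all others, and Hspa1a and Hspa1b spread over more than any other member within WT.

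Hspa1b was the member that differed most between WT and KI mice in size. Among WT mice it was high in replicate 5 (37.4 CPM), replicate 2 (33.3 CPM) and replicate 6 (31.6 CPM), was 7.63 CPM in replicate 1, 2.71 in replicate 3 and 1.18 in replicate 7, and was lowest in replicate 4 at 0.363 CPM (7 reads). The WT mice thus spanned 103-fold. KI-96 mice had 2.16, 6.80, 1.95 and 4.47 CPM in replicates 1 to 4, KI-571 mice 5.81, 6.55, 10.7 and 6.55 CPM, and KI-FL mice 4.25, 8.71, 2.32 and 3.0 CPM. All 12 KI mice lay below the 3 high WT mice and above the 2 low WT mice, so that each KI group sat inside the WT range.

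On the log2 scale Hspa1b was lower than in WT by a fitted difference of -2.09 ± 0.83 (SE) in KI-96 (adjusted p = 0.636), -1.15 ± 0.78 in KI-571 (adjusted p = 0.824) and -1.86 ± 0.83 in KI-FL mice (adjusted p = 0.263). For the mean of the KI genotypes it was -1.70 ± 0.56, with a 95% confidence interval from -2.86 to -0.53, an unadjusted p of 0.00622 and an adjusted p of 0.201 (edgeR quasi-likelihood test, Benjamini-Hochberg over 18521 genes). None of these passed the threshold of 0.05. The size rested on which WT mice entered: with WT replicates 1 to 4 alone it was -1.13. The other alternatives ran from -0.49 with a replicate block, which also sets aside WT replicates 5 to 7, to -1.92 without WT replicate 4.

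Hspa1a followed the same mice. WT replicates 5, 6 and 2 had 19.7, 15.2 and 8.12 CPM, and the other 4 WT mice had 1.03 to 3.67 CPM. KI-96 mice had 2.60, 2.75, 2.28 and 4.26 CPM, KI-571 mice 3.89, 2.26, 7.28 and 3.12 CPM, and KI-FL mice 5.38, 3.40, 1.97 and 0.587 CPM in replicates 1 to 4, the last from 9 reads. Every KI mouse lay below WT replicates 2, 5 and 6, and KI-FL replicate 4 lay below every WT mouse. The fitted log2 difference from WT was -1.29 ± 0.68 in KI-96, -0.82 ± 0.66 in KI-571 and -1.37 ± 0.69 in KI-FL mice, with adjusted p of 0.697, 0.886 and 0.321. For the mean of the KI genotypes it was -1.16 ± 0.48 (adjusted p = 0.319), and it was -0.68 without WT replicate 5, -0.87 without WT replicate 6, -0.85 with Xist as a covariate, -0.19 with WT replicates 1 to 4 alone and -0.03 with a replicate block. When the reads of both genes were added, since they share sequence, it was -1.51 (adjusted p = 0.212).

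**Figure D3:**
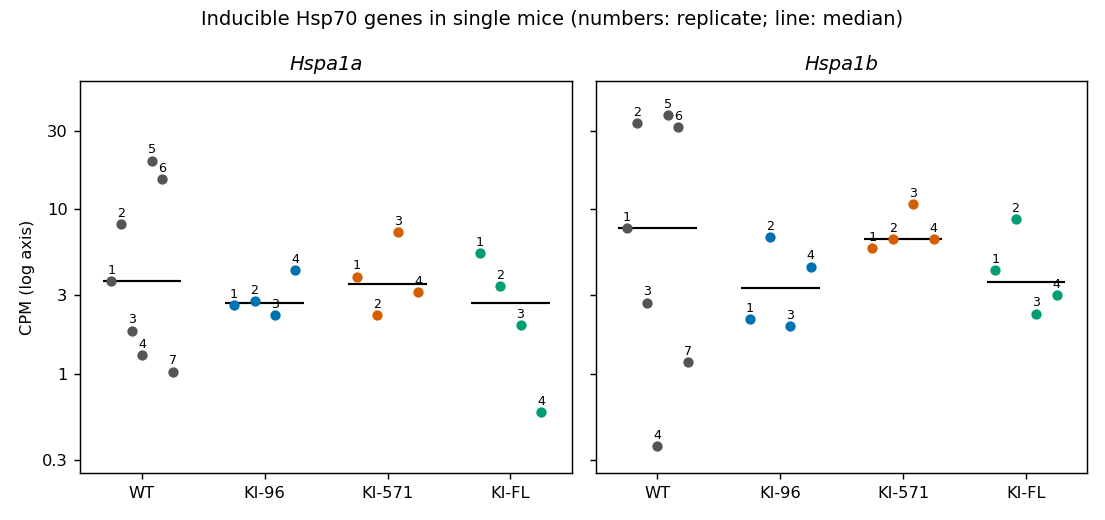
CPM of Hspa1a and Hspa1b in each mouse (logarithmic vertical axis), with the replicate number beside each point and a line at the median of each genotype. WT replicates 2, 5 and 6 lie above all 12 KI mice for both genes, and the remaining WT mice lie among or below them.

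WT replicates 2, 5 and 6 were also the highest WT mice for Bag3, an HSF1 target. This grouping was noticed after the values were seen. Hspa1a and Hspa1b, which share sequence, prompted it. Apart from them, the grouping held for 1 of the other 8 members (Bag3) and for 4 of 38 other genes of the Hsp70 network (10.5%). These 4 were the J-domain protein gene Dnajb1, the ubiquitin-conjugating enzyme gene Ube2d1, Hsf2 and the small heat shock gene Cryab. Among all tested genes the grouping held for 717 of 18521 (3.87%). The summed level of 7 immediate early genes, which report recent neuronal activity, was likewise highest in these WT mice, at 793 CPM in replicate 5, 661 in replicate 6 and 557 in replicate 2, against 368 to 531 CPM in the other WT mice. In the KI mice that sum ran from 335 to 922 CPM. The summed cell type markers and sex-linked genes, which were scored as well, did not have these mice highest in WT. The part of the immediate early genes in the level of the inducible genes was not tested.

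The spread between mice separated the inducible genes from the other members. The biological coefficient of variation, the spread that edgeR fits beyond counting error, was 0.811 for Hspa1b and 0.701 for Hspa1a. Only 1.23% and 2.69% of the tested genes had a larger one, and the median was 0.202. It was 0.243 for Bag3, 0.189 for Hspbp1, 0.168 for Hsph1, 0.166 for Hspa2, 0.15 for Hspa8, 0.129 for Hspa4, 0.122 for Stub1 and 0.103 for Hspa12a, a gene steadier than 96.7% of the tested genes. The inducible pair together made up 0.235% to 8.43% of the level of Hspa8 per length in WT mice and 0.451% to 2.59% in KI mice. These shares may be too low. Stretches found in other genes made up 56.5% of Hspa1a and 49.9% of Hspa1b, against 32.1% of Hspa8, and reads there may have gone uncounted.

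Hspa8, the constitutive Hsp70 of the cytosol, had 812 to 1420 CPM in WT mice with a median of 1070. KI-96 mice had 1380, 1510, 1130 and 1350 CPM, KI-571 mice 1350, 1060, 1040 and 1110 CPM, and KI-FL mice 1240, 1480, 1270 and 1210 CPM. All 8 KI-96 and KI-FL mice were above the WT median, but each KI group overlapped WT. The log2 difference was 0.26 ± 0.13 in KI-96 (adjusted p = 0.680), 0.02 ± 0.13 in KI-571 (adjusted p = 0.996) and 0.21 ± 0.13 in KI-FL mice (adjusted p = 0.418).

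Hspa2, an Hsp70 gene best known from the testis and also expressed in brain, had 29.1 to 43.3 CPM in WT mice with a median of 33.3. KI-96 mice had 44.4, 48.4, 32.4 and 41.7 CPM, KI-571 mice 41.3, 45.2, 48.2 and 36.7 CPM, and KI-FL mice 40.6, 46.9, 58.1 and 34.9 CPM. Of the 12 KI mice, 11 were above the WT median and 6 above every WT mouse. The log2 difference was 0.25 ± 0.14, 0.29 ± 0.14 and 0.37 ± 0.14 in KI-96, in KI-571 and in KI-FL mice, and 0.31 ± 0.11 for their mean, with a 95% confidence interval from 0.08 to 0.54, an unadjusted p of 0.0117 and an adjusted p of 0.247. It stayed between 0.17 and 0.36 under the 30 other settings that gave this value, and passed the threshold in none of them.

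The Hsp110-type genes encode exchange factors that also hold unfolded proteins. Hspa4 had 200 to 265 CPM in WT mice and 188 to 288 CPM in KI mice, and its log2 difference from WT was 0.16 ± 0.11, 0.05 ± 0.11 and 0.06 ± 0.11 in KI-96, in KI-571 and in KI-FL mice. Hsph1, which is itself induced by heat shock, had 379, 406, 407 and 362 CPM in WT replicates 1, 2, 5 and 6, and 258, 252 and 290 CPM in WT replicates 3, 4 and 7. The KI mice ranged from 278 to 418 CPM across this gap. The log2 difference of Hsph1 was 0.02 ± 0.15, -0.07 ± 0.15 and 0.07 ± 0.15. The 95% confidence intervals for these genes lay within 0.774-fold and 1.31-fold of WT in every KI genotype.

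Hspa12a, whose product has an Hsp70-like ATPase domain and which is expressed in brain, had 137 to 160 CPM in WT mice. It had 156, 149, 191 and 165 CPM in KI-96 mice, 133, 139, 147 and 121 CPM in KI-571 mice and 138, 158, 165 and 153 CPM in KI-FL mice. Every KI-96 mouse was above every KI-571 mouse, which was seen in 2.85% of tested genes for this pair of genotypes, in either direction. By Xist and the Y-linked genes, these groups also differed in sex, which cannot be told apart from genotype here. The log2 difference between KI-96 and KI-571 was 0.29 ± 0.10, with an unadjusted p of 0.00628 and an adjusted p of 0.602, and 5.51% of tested genes had an unadjusted p under 0.05 in this comparison. Against WT it was 0.15 ± 0.08 in KI-96 (adjusted p = 0.703), -0.14 ± 0.09 in KI-571 (adjusted p = 0.793) and 0.05 ± 0.09 in KI-FL mice (adjusted p = 0.789).

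Hspbp1 (ENSMUSG00000063802.5, chr7:4660521-4685068, minus strand, 8 exons in its longest transcript), the inhibitor of Hsp70 and CHIP, had 47.2 to 66.2 CPM in WT mice with a median of 54.9. KI-96 mice had 55.6, 50.2, 29.3 and 73.7 CPM, KI-571 mice 47.8, 64.2, 65.9 and 49.3 CPM, and KI-FL mice 55.1, 60.6, 58.6 and 78.3 CPM in replicates 1 to 4. The extremes were KI-96 replicate 3, the library with the most reads on no gene, and KI-FL replicate 4, the library with the most genes at 0. All other KI mice but KI-96 replicate 4 lay within the WT range.

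The log2 difference of Hspbp1 from WT was -0.07 ± 0.17 in KI-96 (adjusted p = 0.956), 0.05 ± 0.17 in KI-571 (adjusted p = 0.993) and 0.20 ± 0.17 in KI-FL mice (adjusted p = 0.550). Without KI-96 replicate 3 the difference in KI-96 mice was 0.13, and without KI-FL replicate 4 the difference in KI-FL mice was 0.08. The 95% confidence intervals ran from 0.748-fold to 1.21-fold in KI-96, 0.814-fold to 1.32-fold in KI-571 and 0.905-fold to 1.46-fold in KI-FL mice. Differences within these limits are compatible with the values of these mice. In tissue RNA, fewer cells that express a gene and less of its RNA per cell cannot be told apart.

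Stub1, the gene for CHIP, had 37.8 to 50.8 CPM in WT and 36.6 to 50.6 CPM in KI mice, with log2 differences of -0.01 ± 0.10, 0.03 ± 0.10 and 0.10 ± 0.10 in KI-96, in KI-571 and in KI-FL mice. Its 95% confidence intervals against WT lay between 0.853-fold and 1.24-fold, and the overlap with Jmjd8 applies to these values. Bag3 had 7.55 to 16.1 CPM in WT mice, 9.67, 10.9, 5.15 and 11.9 CPM in KI-96, 9.08, 9.82, 14.3 and 13.6 CPM in KI-571 and 10.6, 13.1, 9.15 and 8.68 CPM in KI-FL mice. Its log2 difference was -0.41 ± 0.22 in KI-96 (adjusted p = 0.702), -0.09 ± 0.22 in KI-571 (adjusted p = 0.983) and -0.27 ± 0.22 in KI-FL mice (adjusted p = 0.546), and each group overlapped WT.

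**Figure D4:**
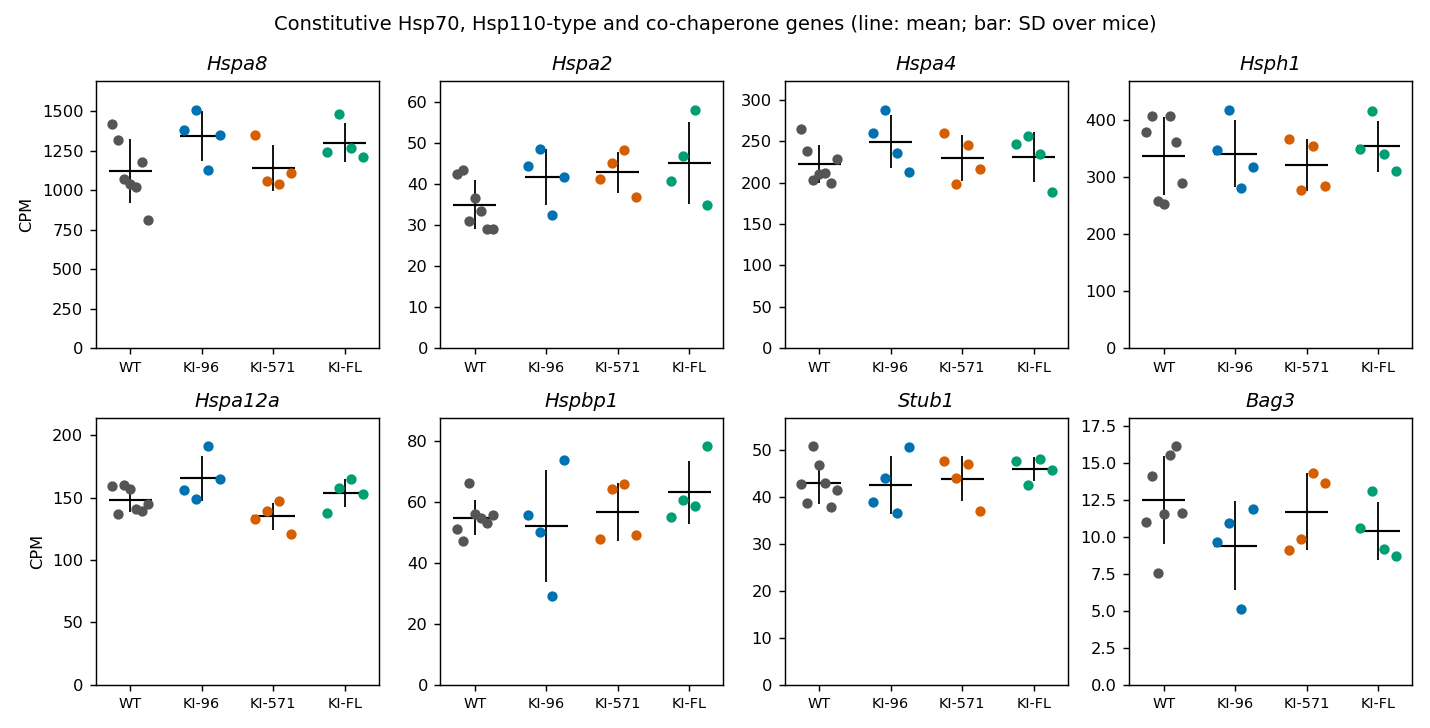
CPM of the 8 members other than Hspa1a and Hspa1b, each point 1 mouse, with the mean (line) and SD (bar) of each genotype and vertical axes from 0. The genotypes overlap for every gene except KI-96 against KI-571 for Hspa12a, with Hspbp1 most spread in KI-96 mice (29.3 to 73.7 CPM).

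Counted together, 0 of the 10 members passed an adjusted p of 0.05 with edgeR, and 0 passed with DESeq2, in any of the 7 comparisons. Among all tested genes the share that passed with edgeR was 0.027% in KI-96, 0.0324% in KI-571 and 0.194% in KI-FL mice against WT, and 0.054% for the mean of the KI genotypes. Between KI genotypes it was 0% for KI-96 against KI-FL (0 genes with edgeR, 1648 at an unadjusted p under 0.05 and 52 with DESeq2), 0.0864% for KI-571 against KI-FL and 0.0054% for KI-96 against KI-571. With DESeq2 the share of tested genes was 0.14% in KI-96, 0.583% in KI-571 and 2.69% in KI-FL mice against WT, 1.33% for the mean of the KI genotypes, 0.221% for KI-96 against KI-FL, 0.458% for KI-571 against KI-FL and 0.168% for KI-96 against KI-571. At shares this low, 0 of 10 is close to the background.

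At an unadjusted p under 0.05, 1 member was lower in KI-96 mice (Hspa1b), 0 members differed in KI-571 mice, and 2 differed in KI-FL mice (Hspa2 higher, Hspa1b lower). For the mean of the KI genotypes there were 3, with Hspa2 higher and Hspa1a and Hspa1b lower. The share of all tested genes was 7.45%, 7.72%, 16.7% and 12.9% in these comparisons. No member had values that separated a KI group from WT, against 1.24% of tested genes in KI-96, 1.55% in KI-571 and 5.29% in KI-FL mice, and 0.0108% for all 12 KI mice against WT. The median log2 difference over the members was 0.00, -0.02 and 0.06 in KI-96, in KI-571 and in KI-FL mice, beside -0.015, -0.009 and -0.028 over all tested genes.

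**Figure D5:**
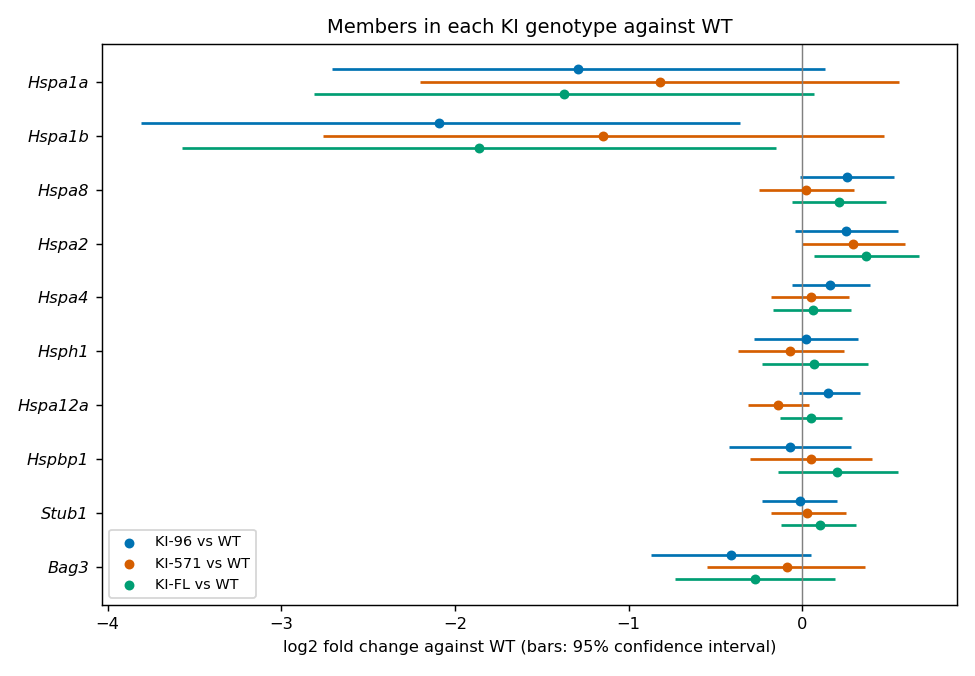
Fitted log2 fold change of each member in each KI genotype against WT (points) with 95% confidence intervals (bars). Intervals of Hspa1a and Hspa1b are several times wider than those of the other members, and none of the differences passed an adjusted p of 0.05.

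The wider Hsp70 network was described by 38 further genes: 8 of the Hsp70 family, 16 co-chaperones and exchange factors, 6 ubiquitin-conjugating partners of CHIP, and 8 heat shock factors or classical targets. With edgeR, 0 of 38 passed in any comparison, while 3, 3 and 10 had an unadjusted p under 0.05 in KI-96, in KI-571 and in KI-FL mice. The share of all tested genes at that threshold was 7.45%, 7.72% and 16.7%. Of the 10 in KI-FL mice, 6 were higher and 4 lower. With DESeq2, Sil1 and Fkbp5 passed in KI-FL mice and Sil1 for the mean of the KI genotypes, where DESeq2 passed 596 (2.69%) and 303 (1.33%) of all tested genes. The median log2 difference of the list was -0.05, -0.02 and -0.01.

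Sil1, an exchange factor for the Hsp70 of the endoplasmic reticulum, had 22.4 to 29.4 CPM in WT mice. It had 37.6, 31.8, 31.3 and 30.3 CPM in KI-96 mice, 42.6, 38.4, 33.4 and 28.3 CPM in KI-571 mice and 35.7, 31.6, 35.7 and 57.4 CPM in KI-FL mice. All KI mice but KI-571 replicate 4 were above every WT mouse, and the highest value was in KI-FL replicate 4. Groups wholly apart from WT were seen in 1.24% of tested genes in KI-96 and 5.29% in KI-FL mice. In the network list, 1 of 38 genes stood apart from WT in KI-96 and 2 in KI-FL mice. The log2 difference of Sil1 was 0.33 ± 0.14, 0.45 ± 0.14 and 0.62 ± 0.14, with adjusted p of 0.649, 0.286 and 0.0573. It was 0.40 in KI-FL mice without replicate 4 (adjusted p = 0.186). Fkbp5, a co-chaperone of Hsp90 induced by glucocorticoids, had 39.1 to 61.1 CPM in WT and 54.8 to 92.6 CPM in KI-FL mice, with a log2 difference of 0.59 ± 0.15 (adjusted p = 0.0800). For the mean of the KI genotypes the differences at the other end of the list were -0.33 ± 0.20 for Bag2, an inhibitor of CHIP (adjusted p = 0.509), and -0.32 ± 0.11 for Ube2d1, a ubiquitin-conjugating enzyme that works with CHIP (adjusted p = 0.235).

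Across the 19 mice, the genes whose log2 CPM was most like that of Hspa1b were Hspa1a (Pearson r = 0.834), Dnajb1 (0.792) and Mkks (0.760). Hspa1a shares sequence with Hspa1b, though reads not uniquely placed were set aside. Those most like Hspa8 were Stip1 (0.799), which encodes the adaptor between Hsp70 and Hsp90, 1700030C10Rik (0.734), at most 1.19 CPM in any mouse, and Slc30a10 (0.731). Those most like Hspbp1 were Tpgs1 (0.931), Pithd1 (0.923) and Map1lc3a (0.905). Tpgs1, Pithd1 and Map1lc3a had their lowest values, 23.5, 31.8 and 61.2 CPM, in KI-96 replicate 3, where Hspbp1 was lowest too. The r without that mouse was not computed. Without KI-FL replicate 4, the 3 genes most like Hspa1b were the same, 2 of 3 remained for Hspa8 and 0 of 3 for Hspbp1. These are descriptions over mice that share genotype and library quality.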

How the data were processed

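Striatal RNA of 19 mice was sequenced, with genotype and replicate number as the labels give them. The deposited values are raw counts of reads on each gene, without normalization by the authors. Per the study's methods, adapters were trimmed with BBduk, reads under 100 bases were discarded, reads were aligned to GRCm38 with STAR, and genes were counted with HTSeq. Tool versions, annotation and strand setting of these steps are not given in the sources used here. The study's model had the sacrifice batch as a covariate and left out a WT mouse; neither is named in the labels, so all 7 WT mice were kept without it. The 4 columns that the submitters ask to disregard were not used, and the 5 summary lines of HTSeq, among them reads on no gene (11.1% to 24.2%) and reads not uniquely placed (3.07% to 5.27%), stayed out of the library sizes. Of 54232 gene identifiers, 54079 were matched to symbols, with the version number ignored where needed.

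After filterByExpr (at least 10 counts, total of at least 15), libraries were scaled by TMM, and edgeR 4.0.16 (R 4.3.3) fitted all mice at once, with genotype as the only term. Of 7 comparisons, each was tested by the quasi-likelihood F-test with Benjamini-Hochberg adjustment over 18521 genes. Levels are CPM, and log2 CPM used a prior count of 2. Gene models were from GENCODE M21 and upstream windows from RefSeq (GRCm38.p6), with a window for 9 of the 10 members; CPM per kb used the union of exons. The p-values measure the spread between these mice only. Alternatives were DESeq2 1.42.0 and its size factors, no filter or at least 10 counts in every mouse, robust spread, only the genotypes compared, Xist as a covariate, mice with low Xist only, WT replicates 1 to 4 alone, 1 surrogate variable (sva 3.50.0), a replicate block, Hspa1a and Hspa1b added, longest transcripts for length, and each mouse left out. The procedure was tested on simulated data. No 2 replicates agreed within sampling noise (lowest chi-square per degree of freedom 8.59 over 39 pairs). The members and lists were chosen with earlier results of these data known. All members were named, with network genes that passed, otherwise the 2 highest and 2 lowest for the mean of the KI genotypes, and the 3 genes most like Hspbp1, Hspa1b and Hspa8. Dnajb1, Hsf2 and Cryab were named after their values were seen.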

Additional observations from a re-analysis of the deposited data

How the results depend on the processing

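Under every alternative run, 0 of the 10 members passed an adjusted p of 0.05 in any comparison, and the smallest adjusted p of a member was 0.069 (Hspa1b, mean of the KI genotypes against WT, without the filter on low counts). In the network list, 0 genes passed in the reported fit. In KI-FL mice against WT, 2 passed with DESeq2, and 1 (Sil1) without the filter, with robust spread, with only the genotypes compared and, among the fits that leave out a mouse (range 0 to 1), without KI-96 replicate 3. Those fits passed 596, 85, 62, 336 and 159 of all tested genes in that order, against 36 in the reported fit. For the mean of the KI genotypes, 1 (Sil1) passed with DESeq2, without the filter and, in the fits that leave out a mouse (range 0 to 1), without KI-96 replicate 3 or KI-571 replicate 4, where 303, 140, 173 and 132 of all tested genes passed, against 10 in the reported fit. The cause was not tested.

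Signs turned only for log2 differences of members that had not passed. In KI-96 mice, with Xist as a covariate, Hsph1 was -0.10 and Stub1 0.04. With WT replicates 1 to 4 alone, the differences in KI-571 mice were 0.15 for Hspa1a, -0.08 for Hspa8, -0.02 for Stub1 and 0.09 for Bag3, and in KI-FL mice -0.01 for Hspa12a. Leaving out 1 mouse at a time gave -0.09 to 0.10 for Hsph1, -0.29 to 0.13 for Hspbp1 and -0.11 to 0.05 for Stub1 in KI-96 mice. It gave -0.07 to 0.09 for Hspa8, -0.02 to 0.11 for Hspa4, -0.03 to 0.12 for Hspbp1, -0.01 to 0.10 for Stub1 and -0.21 to 0.01 for Bag3 in KI-571 mice, and -0.01 to 0.13 for Hsph1 in KI-FL mice.

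Same-numbered mice are different animals, and their deviations from the group means did not go together (r from -0.128 to 0.29 over 24 pairs, median -0.00479), so the numbers were not treated as pairing. With the replicate block, which leaves WT replicates 5 to 7 without a partner, 0 members and 0 network genes passed, and the differences in KI-571 mice were 0.36 for Hspa1a, 0.26 for Hspa1b, -0.08 for Hspa8, 0.02 for Hsph1, -0.02 for Stub1 and 0.13 for Bag3. With the longest transcript in place of the union of exons, Stub1 and Hspa12a exchanged places in the order of levels (23.9 and 25.9 CPM per kb), and the other members kept theirs. With at least 10 counts in every mouse, Hspa1a and Hspa1b were not tested, and without the mice of high Xist no KI-96 mouse was left to compare. No member had a mouse that stood apart from its genotype by Dixon's test, in 40 groups of which chance flags about 1 in 20. Counts of a few reads limit Hspa1a and Hspa1b in single mice. With 4 mice a genotype, differences of the steadier members within their intervals remain compatible with the data.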
